A study of Mus musculus with 12 samples.

Results

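This comparison asked how sorted mouse hepatocytes that had lost Yap and Taz differed from control hepatocytes during the repair of a chemical injury. It used 6 of the series' 12 libraries, chosen by their group labels: 3 labelled Yap/Taz KO + CCl4 and 3 labelled ctrl + CCl4. All mice carried Yapflox/flox; Tazflox/flox alleles. The knockout mice received 500000000000 genome copies of an adeno-associated virus of serotype 8 by tail vein. The virus drove Cre recombinase from TBG, a promoter active in hepatocytes, and was given 3 weeks before the injury. Both groups received carbon tetrachloride (CCl4), a liver toxin, into the peritoneum at 1 ml/kg in corn oil, and livers were taken 48 hours later. The labels name no control virus, so the effect of the deletion and any effect of the virus cannot be told apart. Age and sex are not given in the labels. RNA came from 500000 cells sorted by flow cytometry per library and was read as tags near the 3' ends of transcripts.

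YAP (gene Yap1) and TAZ (gene Wwtr1) are transcriptional coactivators that the kinases of the Hippo pathway hold out of the nucleus. In the nucleus they act through TEAD DNA-binding proteins on genes such as Ccn1, Ccn2, Ankrd1 and Amotl2. In the liver their activity is known for driving hepatocyte proliferation and for a shift away from the mature hepatocyte state when it is forced. CCl4 is turned into a reactive product by cytochrome P450 enzymes such as Cyp2e1, which sit in the hepatocytes around the central vein, and these cells are the ones it damages most.

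The 6 libraries held between 2302918 and 3028951 counts and between 14120 and 14879 detected genes. Mitochondrial transcripts took from 7.0% to 18.3% of counts, both ends being ctrl + CCl4 libraries (replicates 3 and 2). That replicate 2 also held 14 counts of Xist against 146 to 395 in the other 5 libraries, with at most 1 count of 4 Y-linked genes in any. Transcripts of pancreatic acinar cells, the digestive-enzyme cells of the pancreas, stood far apart in knockout replicates 1 and 2, at 3355 and 12922 summed CPM (counts per 1000000 counts of the scaled library). The same sum was 51.4 in knockout replicate 3 and 42.1, 42.1 and 480 in the controls. All 10 hepatocyte markers were tested and their sum was 86206 to 150051 CPM, against 3705 to 7754 CPM for 22 macrophage and Kupffer cell markers. Hepatocyte markers thus led in every library, and RNA of other cells was measurable.

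After CCl4, the knockout libraries differed from the controls by 5 genes at an adjusted p under 0.05, which is 0.0474% of the 10540 genes tested. Yap1 itself fell, as did Plek, the gene of a phosphoprotein of blood cells, and Il1rn, the gene of the interleukin-1 receptor antagonist. Notum, a secreted enzyme that inactivates Wnt proteins and is itself a Wnt target, rose 3.98-fold. Cyp2a5, a cytochrome P450 that metabolises coumarin and nicotine, rose 10.7-fold. The 2 genes that rose are 0.019% of those tested and the 3 that fell are 0.0285%. Adjusted p-values here are from edgeR's quasi-likelihood test with Benjamini-Hochberg adjustment over all tested genes, unless DESeq2 is named. The labels do not say whether libraries came from separate animals, so p-values measure only the spread between these samples.

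The targeted genes check the labels. Yap1 (chromosome 9, 7931999 to 8004596, minus strand, GRCm38) stood at 60.9, 57.2 and 74.7 CPM in the 3 control libraries and at 17.0, 16.3 and 16.5 CPM in the 3 knockout libraries. The groups lay far apart, and the knockout libraries differed among themselves by less than 1 CPM. The log2 fold change was -1.95 (SE 0.22, adjusted p = 0.00278), a 3.87-fold lower level. Wwtr1 (chromosome 3, 57455649 to 57575910, minus strand) stood at 38.4, 36.9 and 39.6 CPM in the controls and at 28.9, 22.8 and 28.4 CPM in the knockouts. Every knockout library was below every control library, but the difference of -0.52 (SE 0.21) did not pass the test (adjusted p = 0.371). The labels do not give the floxed exons, and tags near the 3' end can still be read from a transcript that lacks them, so these levels do not measure protein. Some Wwtr1 RNA can also come from other cells, since TAZ is expressed in stellate and endothelial cells, and its share was not tested.

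**Figure D1:**
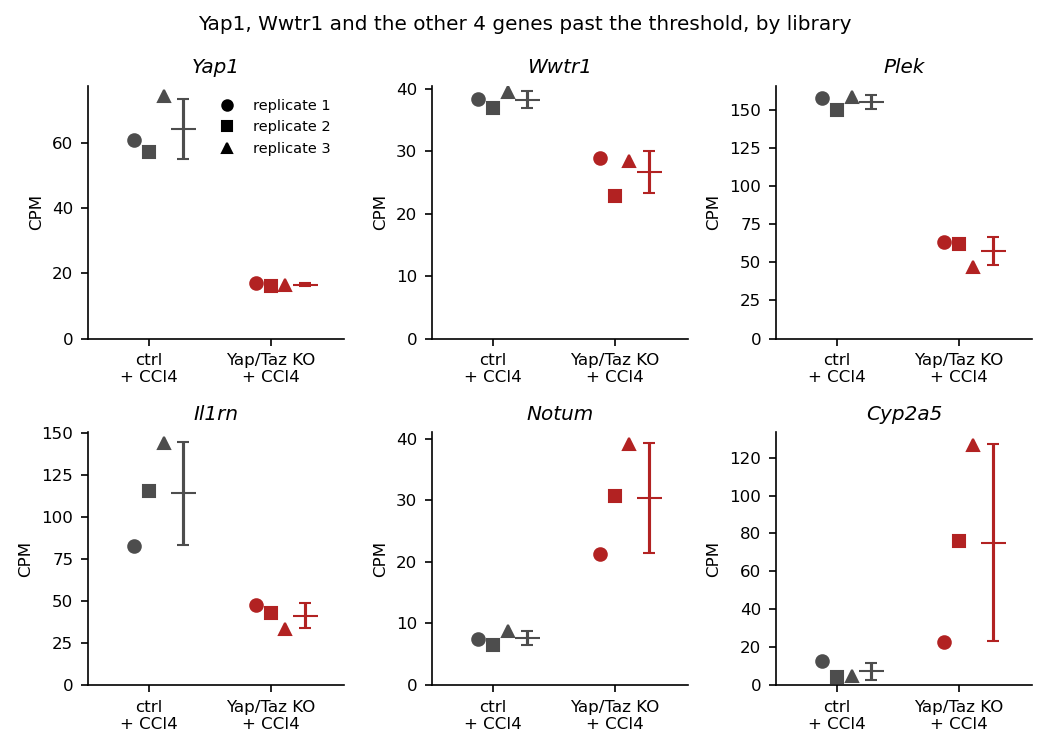
Level in CPM (linear axes from 0) of Yap1, Wwtr1 and the 4 other genes that passed the threshold, in ctrl + CCl4 (grey) and Yap/Taz KO + CCl4 (red). Marker shapes are the 3 replicates, and the dash with its bar is the mean ± SD. The groups do not overlap in any panel; Cyp2a5 in the knockouts spreads from 22.7 to 127 CPM.

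Plek (chromosome 11, 16971206 to 17052381, minus strand) stood at 158, 150 and 159 CPM in the controls and at 63.1, 62.2 and 47.1 CPM in the knockouts. That is a log2 fold change of -1.43 (SE 0.19, adjusted p = 0.0161). Plek is a gene of leukocytes and platelets more than of hepatocytes, and the part of such cells in its fall was not tested. Il1rn (chromosome 2, 24336853 to 24351494) stood at 82.6, 116 and 144 CPM in the controls and at 47.6, 43.0 and 33.4 CPM in the knockouts, a log2 fold change of -1.46 (SE 0.24, adjusted p = 0.0424). All knockout libraries lay below the lowest control for both genes. Notum (chromosome 11, 120653788 to 120661175, minus strand) stood at 7.51, 6.55 and 8.79 CPM in the controls and at 21.3, 30.7 and 39.2 CPM in the knockouts. Its 3 control libraries were close together and its lowest knockout library was well above them, for a log2 fold change of 1.99 (SE 0.31, adjusted p = 0.0424). Cyp2a5 (chromosome 7, 26835305 to 26843548) stood at 12.5, 4.14 and 4.76 CPM in the controls and at 22.7, 76.3 and 127 CPM in the knockouts, a log2 fold change of 3.42 (SE 0.54, adjusted p = 0.0424). Both groups spread widely without overlapping. Near-identical paralogs of Cyp2a5 make its own share of the reads uncertain.

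How many genes passed depended on the libraries and the test. Without knockout replicate 2, no gene passed by edgeR, and the adjusted p rose to 0.0866 for Yap1, 0.122 for Plek, 0.162 for Il1rn, 0.14 for Notum and 0.14 for Cyp2a5. Without knockout replicate 3, 48 genes passed, 42 of them higher. Without control replicate 2 or 3, 2 genes passed in each case. At an unadjusted p under 0.05, 665 genes were higher and 546 lower in the 6 libraries. DESeq2 on the same counts called 106 genes: 70 higher (0.664% of those tested) and 36 lower (0.342%). These shares, also where they stand for all genes below, include 3885 genes that got no adjusted p and could not be called. A fit that shared 1 estimate of the spread with the 6 uninjured libraries called none.

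The YAP/TAZ target genes did not pass the test. Of 23 listed, 18 were tested and none was called, with a median log2 fold change of -0.25 against 0.001 over all tested genes. That median was -0.08 without knockout replicate 3. Ccn1, a secreted matrix protein, stood at 12.1, 45.5 and 13.9 CPM in the controls and at 7.93, 6.87 and 15.1 CPM in the knockouts (log2 fold change -1.27, SE 0.48, adjusted p = 0.331). The groups overlapped, and the difference rested on control replicate 2, since without that library it was -0.38. Ccn2, also a matrix protein, stood at 13.3, 12.4 and 3.66 CPM in the controls and at 8.29, 14.8 and 21.6 CPM in the knockouts (log2 fold change 0.61, SE 0.46, adjusted p = 0.658). Amotl2, an angiomotin-family protein that binds YAP, stood at 15.8, 16.2 and 14.7 CPM and at 20.6, 10.5 and 14.0 CPM. Both Ccn2 and Amotl2 overlapped between the groups. Ankrd1, an ankyrin-repeat protein, was below the count filter at 16, 29 and 7 counts in the controls and 7, 10 and 1 in the knockouts. F3, Fjx1, Foxf2 and Tgfb2 also stayed below it.

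The most abundant members of the target list were Axl, a receptor tyrosine kinase, and Ccdc80, a matrix protein. Axl stood at 88.4, 115 and 126 CPM in the controls and at 118, 87.8 and 72.6 CPM in the knockouts. Ccdc80 stood at 97.6, 62.8 and 108 CPM and at 115, 103 and 75.9 CPM. Both overlapped. Only Igfbp3, which binds insulin-like growth factors, was higher in every knockout library than in every control library, and only Myof, a ferlin of the plasma membrane, was lower in every one. That is 1 of 18 in each direction, against 8.86% (higher) and 7.54% (lower) of all genes tested whose groups did not overlap.

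The 2 promoters below are shown because Ccn1 and Ankrd1 are textbook targets of YAP/TAZ with TEAD. Each is the 250 bases before the start, 5′ to 3′ on the gene's strand, from RefSeq on GRCm38.p6. Capitals mark GGAATG, the core of the TEAD motif, or its reverse complement CATTCC.
Ccn1 (chr3:145649986-145650235, minus strand): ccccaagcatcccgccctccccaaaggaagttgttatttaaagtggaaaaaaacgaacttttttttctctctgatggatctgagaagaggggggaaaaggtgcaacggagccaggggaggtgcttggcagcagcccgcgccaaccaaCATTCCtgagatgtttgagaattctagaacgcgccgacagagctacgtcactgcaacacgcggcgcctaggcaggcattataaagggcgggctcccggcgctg
Ankrd1 (chr19:36119845-36120094, minus strand): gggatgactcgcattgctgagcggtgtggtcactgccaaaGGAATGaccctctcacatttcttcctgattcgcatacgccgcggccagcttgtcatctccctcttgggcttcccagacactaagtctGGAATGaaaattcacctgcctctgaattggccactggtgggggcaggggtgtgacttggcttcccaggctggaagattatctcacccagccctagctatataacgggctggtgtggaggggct

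The Ccn1 promoter held 1 match and the Ankrd1 promoter 2. In windows of 300 bases (250 before to 50 after the start), searched on both strands, 8 of the 16 target genes with a promoter in the table held the motif. Over all genes with such a window the share was 16.6%, and over all windows 14.7%. Of the called genes, 4 had a promoter there; Yap1 and 1 of 3 starts of Il1rn held a match, and Plek and Cyp2a5 held none. A match describes the sequence only and does not show binding.

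In the list of other Hippo pathway components, which leaves out Yap1 and Wwtr1, no gene passed the test. Of 31 listed, 25 were tested, with a median log2 fold change of -0.25, which was -0.13 without control replicate 2. The groups did not overlap for 4 members that were lower, 16% of those tested against 7.54% of all genes. They were also apart for Mob1b, a coactivator of the LATS kinases, which was higher (4%, against 8.86% of all genes). The 4 lower members were Nf2 (merlin, an upstream activator of the kinases), the scaffold genes Wwc1 and Wwc2 (the KIBRA family) and Map4k4, a kinase. Wwc2 stood at 59.6, 72.1 and 66.3 CPM in the controls and at 48.7, 41.2 and 35.9 CPM in the knockouts (log2 fold change -0.65, SE 0.20, adjusted p = 0.219). Wwc1 (-0.58, adjusted p = 0.357) and Nf2 (-0.51, adjusted p = 0.415) were of like size. The kinase genes Taok3 and Taok1, the most abundant members, stood at 151 to 233 CPM in the controls and at 136 to 208 CPM in the knockouts. Tead1, one of the DNA-binding partners, stood at 22.9, 22.8 and 20.1 CPM and at 25.2, 16.3 and 12.9 CPM and overlapped.

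Across the gene lists, enzymes and secreted products of mature hepatocytes had higher estimates in the knockouts, while mitotic, immediate early, cytoskeletal and leukocyte genes had lower ones. Apart from Cyp2a5, no gene of those lists passed edgeR's test, so the statement rests on counts and medians. The lists share members and are not independent of each other. Scaling by library totals in place of TMM (edgeR's trimmed mean of M-values) moved the median log2 fold change of all genes from 0.001 to -0.15. The lists named in this paragraph kept their sign under that scaling.

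**Figure D2:**
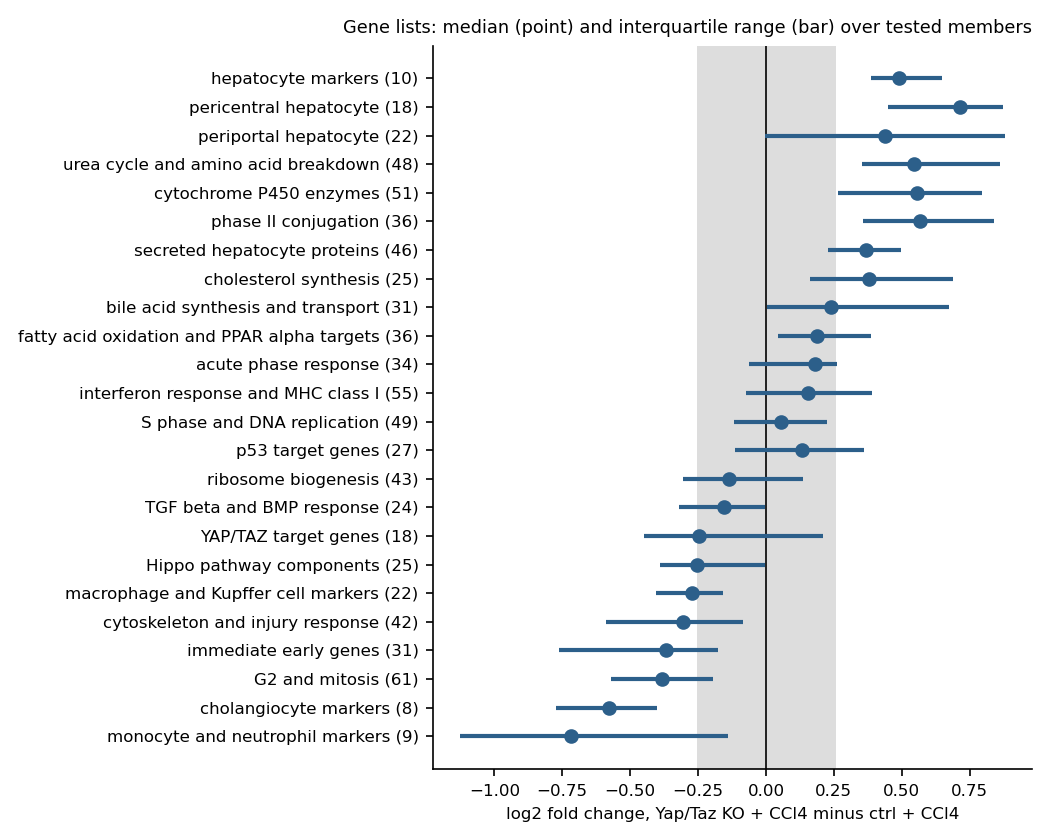
Median (point) and interquartile range (bar) of the log2 fold change, Yap/Taz KO + CCl4 minus ctrl + CCl4, for 24 gene lists, with the number of tested members in brackets. The black line and grey band are the median (0.001) and interquartile range (-0.25 to 0.26) of all 10540 tested genes. Hepatocyte lists lie to the right, up to 0.71 for pericentral genes, and the mitotic list (-0.38) and leukocyte and bile duct markers to the left.

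Pericentral genes, normally on in the hepatocytes around the central vein where CCl4 acts, had the highest median of the metabolic lists, at 0.71 over 18 tested genes. Cyp2a5 was the 1 gene called, against 0.019% of all genes called higher. In 9 of the 18 (50%) every knockout library was above every control library, against 8.86% of all genes. The retinal dehydrogenase Aldh1a1 was the 1 gene with the groups apart the other way (5.56%, against 7.54% of all genes). Cyp2e1, the enzyme that activates CCl4, stood at 118, 50.0 and 115 CPM in the controls and at 259, 317 and 161 CPM in the knockouts (log2 fold change 1.38, SE 0.31, adjusted p = 0.13). All 3 knockout libraries were above all 3 controls. Oat, which breaks down ornithine, stood at 62.6, 45.2 and 109 CPM against 152, 128 and 208 CPM (1.17, SE 0.29, adjusted p = 0.142). Gulo, the last enzyme of vitamin C synthesis, was tight within each group, at 366, 366 and 293 CPM and at 624, 624 and 641 CPM (0.88, SE 0.18, adjusted p = 0.105). Slco1b2, an uptake transporter of bile acids and drugs, stood at 726, 599 and 705 CPM and at 1456, 1065 and 1122 CPM (0.84, SE 0.20, adjusted p = 0.132). Mgst1, a glutathione transferase of membranes, stood at 860, 357 and 779 CPM and at 876, 1125 and 1499 CPM, with knockout replicate 1 just above the highest control. Glul (glutamine synthetase), confined in healthy liver to the innermost pericentral cells, stood at 103, 109 and 138 CPM and at 131, 128 and 121 CPM, and overlapped. DESeq2 called Cyp2e1, Oat, Gulo and Slco1b2, with adjusted p of 0.00322, 0.016, 0.000679 and 0.00481. Like the other genes named for their DESeq2 calls, they were chosen after their values were seen.

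Among Wnt feedback genes, 8 of 13 listed were tested and Notum was the 1 called, against 0.019% of all genes called higher. Lgr4, a receptor that strengthens Wnt signalling, stood at 24.2, 30.7 and 17.6 CPM in the controls and at 26.0, 43.0 and 20.1 CPM in the knockouts. Lgr5, a receptor of the same family, stood at 12.9, 13.1 and 13.9 CPM in the controls and at 9.02, 13.0 and 12.2 CPM in the knockouts. Rnf43 and Znrf3, membrane ubiquitin ligases that remove Wnt receptors, stood at 5.42 to 12.1 and 4.40 to 8.28 CPM in the controls. In the knockouts they stood at 8.29 to 11.2 and 7.19 to 14.8 CPM. Lgr4, Lgr5, Rnf43 and Znrf3 all overlapped between the groups. Axin2, a scaffold of the complex that destroys beta-catenin, was below the count filter.

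Enzymes of amino acid breakdown were higher by estimate in most cases. None of 48 tested genes of the urea cycle and amino acid breakdown list passed edgeR's test, and DESeq2 called 7 higher, against 0.664% of all genes. In 23 of 48 (47.9%) the knockout libraries were all above the controls, against 8.86% of all genes. In 1 (2.08%) they were all below, against 7.54% of all genes, and the median log2 fold change was 0.54. Hpd, of tyrosine breakdown, stood at 170, 193 and 264 CPM in the controls and at 423, 392 and 610 CPM in the knockouts (1.18, SE 0.23, adjusted p = 0.104). Gnmt, which uses up the methyl donor S-adenosylmethionine, stood at 336, 352 and 283 CPM and at 610, 547 and 878 CPM (1.07, SE 0.21, adjusted p = 0.104). For both the lowest knockout library was well above the highest control. Hgd, further down the tyrosine route, had 0.91 (SE 0.25, adjusted p = 0.183).

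Of the urea cycle, Otc (ornithine transcarbamylase) stood at 90.9, 98.3 and 86.8 CPM in the controls and at 162, 146 and 206 CPM in the knockouts (0.90, SE 0.20, adjusted p = 0.124). Arg1 (arginase), the most abundant gene of the list, stood at 1010, 1246 and 1424 CPM and at 1710, 1738 and 3336 CPM. Cps1, which makes carbamoyl phosphate, stood at 593, 689 and 1192 CPM and at 1126, 1363 and 1993 CPM. Otc and Arg1 were apart between the groups and Cps1 overlapped. Knockout replicate 3 was the highest library for Hpd, Gnmt, Otc, Arg1 and Cps1. Glud1 (glutamate dehydrogenase), next to Arg1 in abundance, stood at 1438, 915 and 1484 CPM and at 1705, 1746 and 1581 CPM, apart as well.

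Periportal genes, on in hepatocytes near the incoming blood, also had higher estimates. Of 22 tested, 10 (45.5%) had all knockout libraries above the controls, against 8.86% of all genes, and none the reverse, with a median of 0.44 and no edgeR call. DESeq2 called 4 of the 22 higher, against 0.664% of all genes, among them Gls2 (liver glutaminase) and the gluconeogenic enzyme Fbp1. Gls2 stood at 51.7, 44.5 and 38.8 CPM in the controls and at 78.3, 74.1 and 120 CPM in the knockouts (1.01, SE 0.23, adjusted p = 0.13). Fbp1 stood at 290, 168 and 337 CPM and at 448, 446 and 553 CPM (0.87, SE 0.24, adjusted p = 0.183). Members of both zones therefore had higher estimates.

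Enzymes of drug and bile acid metabolism followed. Of 51 tested cytochrome P450 genes, Cyp2a5 was called, against 0.019% of all genes called higher. Of the 51, 14 (27.5%) were apart and higher (8.86% of all genes), none was apart and lower, and the median was 0.56. Cyp4f15, a fatty acid hydroxylase, stood at 37.1, 34.1 and 42.9 CPM in the controls and at 76.8, 63.2 and 77.7 CPM in the knockouts (0.93, SE 0.20, adjusted p = 0.116). Cyp3a11, the main drug-metabolising P450 of the mouse, stood at 651, 507 and 1189 CPM and at 1144, 1274 and 3550 CPM (1.35, SE 0.39, adjusted p = 0.196) and overlapped. Among 36 phase II conjugating enzymes 10 (27.8%) were apart and higher, against the same 8.86%, with a median of 0.57. Nnmt, which methylates nicotinamide, stood at 16.3, 18.3 and 41.8 CPM and at 48.7, 51.3 and 116 CPM (1.49, SE 0.38, adjusted p = 0.149). Sult1b1, a sulfotransferase, stood at 32.5, 26.5 and 30.8 CPM and at 49.0, 61.8 and 52.8 CPM (0.87, SE 0.21, adjusted p = 0.135). Neither list had a call among its other genes by edgeR.

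Among 31 tested genes of bile acid synthesis and transport, 10 (32.3%) were apart and higher, against 8.86% of all genes, and none lower, with a median of 0.24. Akr1d1, the steroid 5β-reductase of bile acid synthesis, stood at 26.7, 38.3 and 48.0 CPM in the controls and at 77.5, 87.1 and 123 CPM in the knockouts (1.34, SE 0.25, adjusted p = 0.09). This was close to the threshold but not past it; DESeq2 gave an adjusted p of 0.000679. Slc10a1 (NTCP, which takes bile acids up from the blood) had 0.88 (SE 0.25, adjusted p = 0.183). Hsd3b7, an early enzyme of the pathway, had 0.82 (SE 0.23, adjusted p = 0.183).

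Secreted plasma proteins were higher by smaller amounts. Of 46 tested, 22 (47.8%) were apart and higher, against 8.86% of all genes, and none lower; the median was 0.37 and none was called by edgeR. Alb (albumin) stood at 45982, 49393 and 35431 CPM in the controls and at 66942, 51500 and 53279 CPM in the knockouts (0.39, SE 0.23, adjusted p = 0.544). Apoa2, an apolipoprotein, stood at 2942, 3008 and 2404 CPM and at 4749, 4151 and 4413 CPM (0.67, SE 0.19, adjusted p = 0.185). Ttr, the thyroid hormone carrier, stood at 9757, 7292 and 7097 CPM and at 13631, 11485 and 14169 CPM (0.70, SE 0.21, adjusted p = 0.21). Ahsg (fetuin-A) stood at 23950, 16704 and 18786 CPM and at 30726, 28848 and 29232 CPM. Serpina6, the corticosteroid carrier, stood at 17.1, 16.9 and 14.7 CPM and at 47.2, 26.0 and 32.7 CPM (1.12, SE 0.27, adjusted p = 0.137). In all 5 the groups were apart. CPM are relative levels, here on TMM-scaled library sizes. Whether the level of such abundant genes moved the values of others was not tested. In bulk RNA, fewer cells of a type and less RNA per cell cannot be told apart.

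The 10 hepatocyte markers themselves had a median log2 fold change of 0.49, and their sum was 109150, 105737 and 86206 CPM in the controls and 150051, 124467 and 134172 CPM in the knockouts. Like this sum, the summed levels of the pericentral, periportal, amino acid, P450, bile acid and secreted protein lists were higher in every knockout library than in every control, while those of the phase II list overlapped. Within the groups the order of the libraries differed. Control replicate 3 had the lowest hepatocyte marker sum of the controls and their highest pericentral, periportal, P450 and amino acid sums, and knockout replicate 3, highest of the knockouts for those 4 lists, was below replicate 1 for hepatocyte markers. The part of hepatocyte RNA content in the list differences was not tested.

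**Figure D3:**
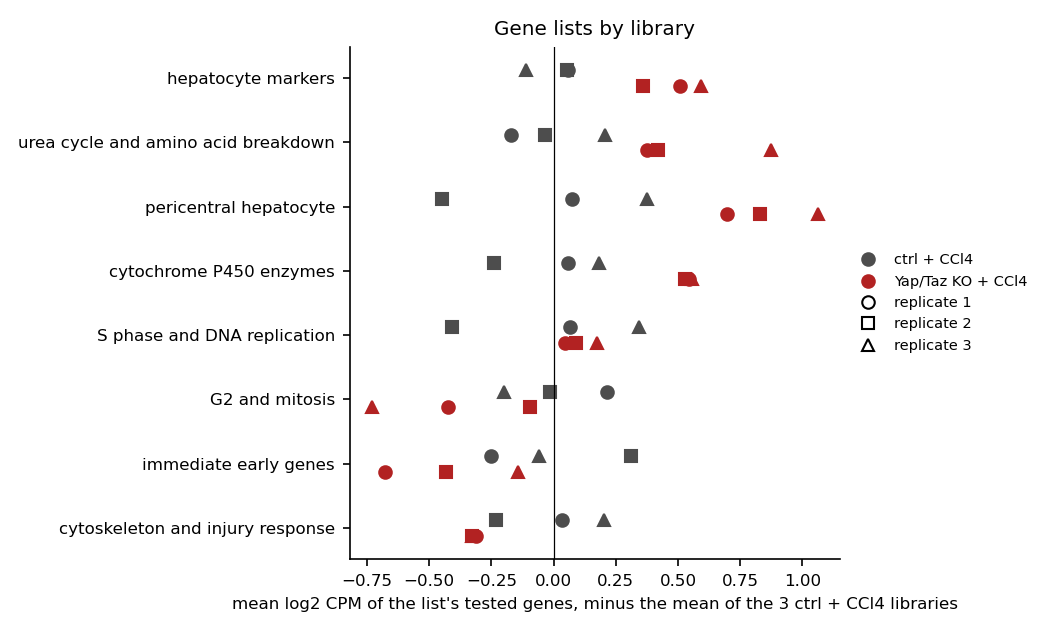
Mean log2 CPM of the tested genes of 8 lists in each library, minus the mean of the 3 ctrl + CCl4 libraries. Grey is ctrl + CCl4, red is Yap/Taz KO + CCl4, and shapes are replicates. The hepatocyte, amino acid, pericentral and P450 lists separate the groups, the S phase list does not, and knockout replicate 3 is the lowest library of the mitotic list.

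Medians of other hepatic programmes were also above 0, with no edgeR call. The median was 0.19 over 36 genes of fatty acid oxidation, 0.38 over 25 of cholesterol synthesis, 0.18 over 34 of the acute phase response and 0.32 over 29 of glycolysis and gluconeogenesis. For the acute phase response it was 0.05 without knockout replicate 2, 0.06 without control replicate 3, 0.08 without knockout replicate 1 and -0.03 with knockout replicates 1 and 2 both left out. Slc25a20, the carnitine carrier that brings fatty acids into mitochondria, stood at 58.4, 44.1 and 46.1 CPM in the controls and at 87.6, 97.6 and 86.3 CPM in the knockouts (0.87, SE 0.20, adjusted p = 0.13). Hamp, the iron hormone hepcidin, stood at 1931, 1871 and 1939 CPM and at 2971, 2814 and 5209 CPM (0.94, SE 0.24, adjusted p = 0.15). The controls were nearly equal for Hamp, and knockout replicate 3 stood above the other two. Iron handling as a list had a median of 0.06 over 20 genes, which was -0.08 with library totals.

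Some genes of growth factor signalling had higher estimates, and none passed edgeR's test. Hgfac, the protease that activates hepatocyte growth factor, stood at 48.4, 69.3 and 75.1 CPM in the controls and at 131, 138 and 128 CPM in the knockouts (1.04, SE 0.21, adjusted p = 0.104). Igfbp2, a binding protein of insulin-like growth factors, stood at 163, 186 and 138 CPM and at 310, 221 and 380 CPM (0.90, SE 0.22, adjusted p = 0.142). Ghr, the growth hormone receptor, stood at 133, 117 and 111 CPM and at 201, 210 and 171 CPM (0.69, SE 0.19, adjusted p = 0.181). The groups were apart for all 3. The growth hormone and IGF list had 9 estimates above 0 and 8 below. In it 6 (35.3%) were apart and higher and 1 (5.88%) was apart and lower. The HGF, EGF and FGF receptor list had 8 estimates above 0 and 9 below, with 2 (11.8%) apart in each direction. Over all genes, 8.86% were apart and higher and 7.54% apart and lower. H19, an imprinted non-coding RNA abundant in fetal liver, stood at 2.50, 1.72 and 4.03 CPM and at 19.1, 11.2 and 18.7 CPM (2.55, SE 0.44, adjusted p = 0.0621). Its control levels were low, and it belongs to the fetal liver list, with 3 estimates above 0 and 6 below (median -0.37).

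The other lists had the following medians, with no edgeR call in any. Positive medians were 0.11 for hepatocyte transcription factors, 0.24 for fatty acid and triglyceride synthesis, 0.49 for aldo-keto reductases, 0.25 for the growth hormone and IGF axis and 0.52 for female-biased genes. Those of interferon and MHC class I (0.15), p53 targets (0.13), male-biased genes (0.12), circadian clock (0.11), NRF2 targets (0.09) and mitochondrially encoded genes (0.04) were closer to 0. Negative medians were -0.37 for fetal liver genes, -0.22 for the Notch pathway, -0.16 for TGF beta and BMP response, -0.14 for ribosome biogenesis, -0.08 for cell death, -0.04 for G1 phase genes and for DNA repair, -0.03 for the HGF, EGF and FGF receptor axis and -0.003 for the unfolded protein response. The fetal liver list rested on 9 tested genes, of which 3 (33.3%) were apart and higher, against 8.86% of all genes, and none apart and lower; its median was 0.16 without control replicate 3. The female-biased median was 0.16 without knockout replicate 1 and 0.25 without control replicate 2. That control library, the one low in Xist, had the lowest female-biased sum of the 6 (478 CPM) and the highest male-biased sum (11634 CPM). With knockout replicates 1 and 2 both left out, the medians of female-biased genes (-0.69) and of the growth hormone and IGF axis (-0.28) were below 0. With library totals, the median was below 0 for hepatocyte transcription factors, p53 targets, male-biased genes, circadian clock, NRF2 targets and mitochondrially encoded genes. Within them, DESeq2 called Akr1c6, a steroid-reducing aldo-keto reductase, at 679, 540 and 626 CPM in the controls and 973, 831 and 1135 CPM in the knockouts (edgeR 0.67, SE 0.19, adjusted p = 0.192). It also called Lpin1, a phosphatidate phosphatase, at 29.6, 28.6 and 30.4 CPM and 42.2, 64.3 and 131 CPM (1.42, SE 0.33, adjusted p = 0.131). On the lower side it called Osgin1, an NRF2 target induced by oxidative stress, at 396, 374 and 245 CPM and 157, 206 and 118 CPM (-1.08, SE 0.24, adjusted p = 0.13).

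Genes of cell division are given by phase. For the S phase and DNA replication list, over 49 tested genes, the median was 0.06 (-0.11 with library totals), 3 were apart and higher, and 1 was apart and lower (8.86% and 7.54% of all genes). Lig1, which joins DNA ends during replication and was the most abundant, stood at 251, 197 and 232 CPM in the controls and at 205, 192 and 179 CPM in the knockouts. Mcm6, a subunit of the replicative helicase, stood at 112, 49.0 and 119 CPM in the controls and at 88.7, 108 and 113 CPM in the knockouts. Rrm2, of nucleotide supply, stood at 58.0, 29.7 and 59.0 CPM and at 58.4, 57.1 and 76.6 CPM. Control replicate 2 was the low library for Mcm6 and Rrm2, and the groups overlapped for all 3.

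The G2 and mitosis list had a median of -0.38 over 61 tested genes, with 59 estimates below 0 and 2 above. In 13 (21.3%) every knockout library was below every control, against 7.54% of all genes, and in none the reverse, but no gene was called by edgeR or DESeq2. Top2a, the topoisomerase that untangles chromosomes, stood at 526, 484 and 441 CPM in the controls and at 380, 391 and 241 CPM in the knockouts (-0.52, SE 0.21, adjusted p = 0.367). Smc4, a condensin subunit, stood at 615, 652 and 458 CPM and at 407, 509 and 364 CPM (-0.43, SE 0.21, adjusted p = 0.447). Top2a was apart between the groups and Smc4 overlapped. Mki67, the proliferation marker Ki-67, stood at 223, 296 and 181 CPM and at 130, 192 and 59.7 CPM (-0.88, SE 0.32, adjusted p = 0.319), again with an overlap. Cenpf, a kinetochore protein, had -0.85 (SE 0.34, adjusted p = 0.357). Cdk1, the kinase that starts mitosis, stood at 359, 137 and 233 CPM and at 209, 258 and 198 CPM, and Ccnb1, its cyclin, at 91.8, 73.1 and 84.6 CPM and at 62.8, 78.8 and 53.9 CPM. Both overlapped. Without 1 library at a time the list's median ran from -0.58 (without knockout replicate 2) to -0.27 (without knockout replicate 3). Among the knockouts, replicate 3 was the lowest for Top2a, Smc4, Mki67, Cdk1 and Ccnb1.

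Immediate early genes, the first to respond to stress and growth signals, had a median of -0.37 over 31 tested genes, with 8 (25.8%) apart and lower, against 7.54% of all genes, and none apart and higher. Ier3, a survival factor of stressed cells, stood at 61.7, 81.7 and 80.6 CPM in the controls and at 33.9, 34.0 and 40.6 CPM in the knockouts (-1.05, SE 0.20, adjusted p = 0.104). Fos, of the AP-1 transcription factor, stood at 451, 519 and 420 CPM and at 225, 325 and 307 CPM (-0.70, SE 0.20, adjusted p = 0.185). Ier3 and Fos were apart, and both were called by DESeq2 (adjusted p = 0.00445 and 0.0414). The most abundant members, the transcription factors Jun and Egr1, overlapped: Jun stood at 518, 744 and 466 CPM and at 349, 532 and 595 CPM, and Egr1 at 395, 714 and 452 CPM and at 290, 486 and 445 CPM. Without 1 library at a time the list's median ran from -0.59 (without control replicate 1) to -0.14 (without control replicate 2).

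The cytoskeleton and injury response list had a median of -0.31 over 42 tested genes, with 12 (28.6%) apart and lower, against 7.54% of all genes, and none apart and higher. Actb (β-actin) stood at 9092, 8197 and 10399 CPM in the controls and at 7906, 6793 and 7087 CPM in the knockouts (-0.35, SE 0.20, adjusted p = 0.535). Tpm4, a tropomyosin, stood at 126, 94.5 and 137 CPM and at 59.1, 68.7 and 51.4 CPM (-0.99, SE 0.21, adjusted p = 0.105). S100a4, a calcium-binding protein, stood at 103, 97.9 and 153 CPM and at 70.3, 65.1 and 37.4 CPM (-1.03, SE 0.26, adjusted p = 0.144). Tmsb4x, which binds free actin, stood at 1890, 710 and 1616 CPM and at 1425, 1198 and 1188 CPM and overlapped. Flna, which crosslinks actin, had -0.85 (SE 0.23, adjusted p = 0.183). Several of these genes, S100a4 and Tpm4 among them, are also strongly expressed in leukocytes, and the part of those cells was not tested.

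Most markers of macrophages were lower by estimate as well. Of 22 macrophage and Kupffer cell markers, 20 had an estimate below 0, with a median of -0.27, which ran from -0.50 (without knockout replicate 1) to -0.12 (without control replicate 3). Their sum was 5684, 4472 and 7754 CPM in the controls and 5300, 4142 and 3705 CPM in the knockouts, which overlapped. Of the 22, 1 (4.55%) was apart and lower, against 7.54% of all genes, and 1 (4.55%) apart and higher, against 8.86%. The 1 apart and lower was Gpnmb, a gene of lipid-laden macrophages, at 229, 307 and 579 CPM and at 156, 197 and 133 CPM (-1.20, SE 0.29, adjusted p = 0.142). Lyz2 (lysozyme) stood at 1422, 657 and 1825 CPM and at 767, 659 and 574 CPM, and Cd5l at 565, 606 and 819 CPM and at 718, 502 and 426 CPM. Clec4f, a defining marker of Kupffer cells, stood at 102, 57.6 and 88.3 CPM and at 108, 65.4 and 73.7 CPM, so that marker did not separate the groups.

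The monocyte and neutrophil list had 9 tested members of 18, with a median of -0.72 (-0.46 without control replicate 1) and 4 (44.4%) apart and lower, against 7.54% of all genes. Its sum ran from 253 to 422 CPM in the controls and from 220 to 317 CPM in the knockouts. Itgam (CD11b), an integrin of myeloid cells, stood at 64.6, 51.4 and 66.3 CPM and at 28.5, 33.3 and 13.3 CPM (-1.28, SE 0.28, adjusted p = 0.129). Ccl2, the chemokine that draws monocytes, stood at 97.2, 71.4 and 91.6 CPM and at 38.2, 41.2 and 34.9 CPM (-1.18, SE 0.20, adjusted p = 0.0621). Il7r, a cytokine receptor of lymphocytes, stood at 29.2, 39.0 and 48.0 CPM and at 11.5, 17.3 and 6.83 CPM (-1.70, SE 0.32, adjusted p = 0.103). Itgam, Ccl2 and Il7r were apart between the groups, while Plac8 and Ccr2, the most abundant members of the monocyte list, overlapped. The lymphocyte list had 4 tested members of 20, and its sum was 65.5 to 91.8 CPM in the controls and 25.2 to 59.3 CPM in the knockouts. Plek and Il1rn, which fell, are expressed by leukocytes too, and whether their fall came from hepatocytes or from such cells was not tested.

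Bile duct markers were lower in sum, at 635, 606 and 742 CPM in the controls and 317, 397 and 241 CPM in the knockouts, with 8 of 16 tested and a median of -0.58. The most abundant of them was Spp1 (osteopontin), also made by macrophages. Spp1 stood at 393, 329 and 473 CPM in the controls and at 129, 193 and 53.6 CPM in the knockouts (-1.67, SE 0.34, adjusted p = 0.105). The defining bile duct markers Epcam, Krt7 and Krt19 were below the count filter. Sox9, a transcription factor of bile duct and reactive hepatocytes, stood at 43.0, 96.5 and 45.8 CPM and at 34.6, 53.1 and 49.3 CPM and overlapped. Erythroid markers had a median of 0.20 over 6 genes. Endothelial (median 0.09) and stellate cell and fibroblast (0.03) markers lay near the bulk of genes, and both medians were below 0 with library totals (-0.07 and -0.14).

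**Figure D4:**
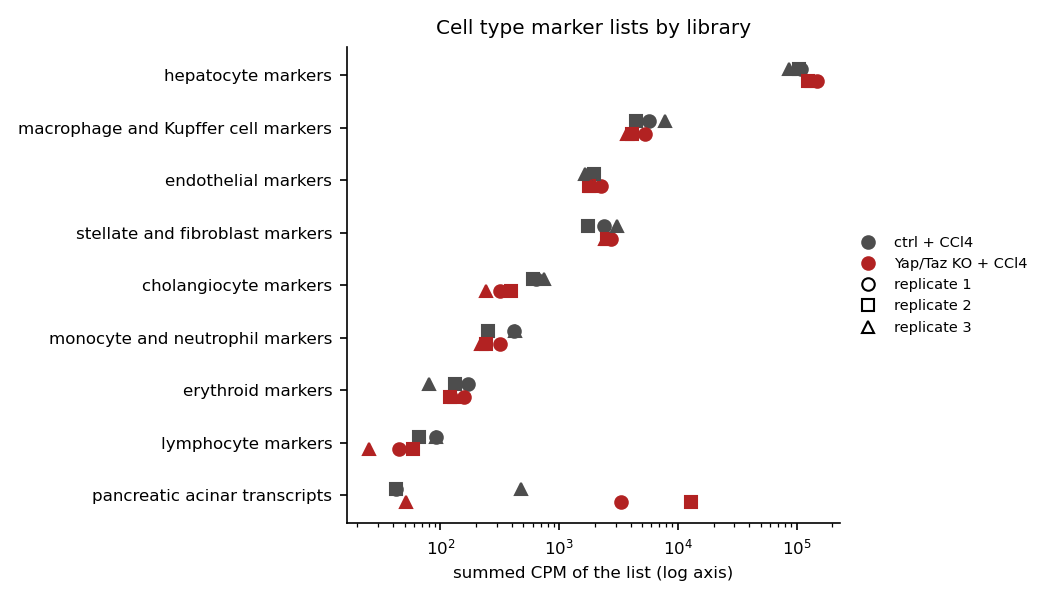
Summed CPM of 9 marker lists in each library on a log axis; grey is ctrl + CCl4, red is Yap/Taz KO + CCl4, and shapes are replicates. Hepatocyte markers dominate every library, bile duct and lymphocyte marker sums are lower in the knockouts, and the acinar sum is highest in knockout replicates 1 and 2.

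The acinar transcripts were not called. Over 15 tested members the median log2 fold change was 5.00, and with knockout replicates 1 and 2 both left out it was -2.73. The remaining knockout library, at 51.4 summed CPM, was above control replicates 1 and 2 (42.1 each) and below control replicate 3 (480). The direction of the median thus depended on single libraries of both groups. With those 2 knockout libraries left out, the lone knockout library had to be assumed to vary like the controls. With the 20 acinar transcripts left out of the table, 8 genes were called, among them all 5 genes of the main fit. These alternatives were chosen after the data were seen.

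The same knockout in uninjured liver was measured in the other 6 libraries, and the genotype by injury interaction asked whether the difference was of another size there. Estimates for uninjured liver are from a fit of all 12 libraries. There Yap1 was lower by a like amount but did not pass the test (-1.89, SE 0.31, adjusted p = 0.102). Its interaction was -0.07 (SE 0.42, adjusted p = 0.975). Notum was lower in the uninjured knockouts by estimate only (-1.13, SE 0.38, adjusted p = 0.416), opposite to its rise after CCl4, for an interaction of 3.11 (SE 0.56). Cyp2a5 had an estimate of 0.50 (SE 0.46, adjusted p = 0.772) without injury and an interaction of 2.90 (SE 0.71). Neither interaction passed (adjusted p = 0.49 and 0.533), and edgeR called none of 10780 genes (0%), with 874 at an unadjusted p under 0.05, 12 called by DESeq2 and 0 by limma-voom. Plek had -0.59 (SE 0.58, adjusted p = 0.785) and Il1rn -0.79 (SE 0.42, adjusted p = 0.577) without injury. Their interactions were -0.85 (SE 0.75, adjusted p = 0.784) and -0.69 (SE 0.54, adjusted p = 0.753). Wwtr1 had an estimate of -1.40 (SE 0.33) without injury, smaller against its SE than that of Yap1, which did not pass the test. The Wwtr1 estimate after CCl4 was -0.52, and the interaction of 0.87 (SE 0.45, adjusted p = 0.63) did not pass.

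**Figure D5:**
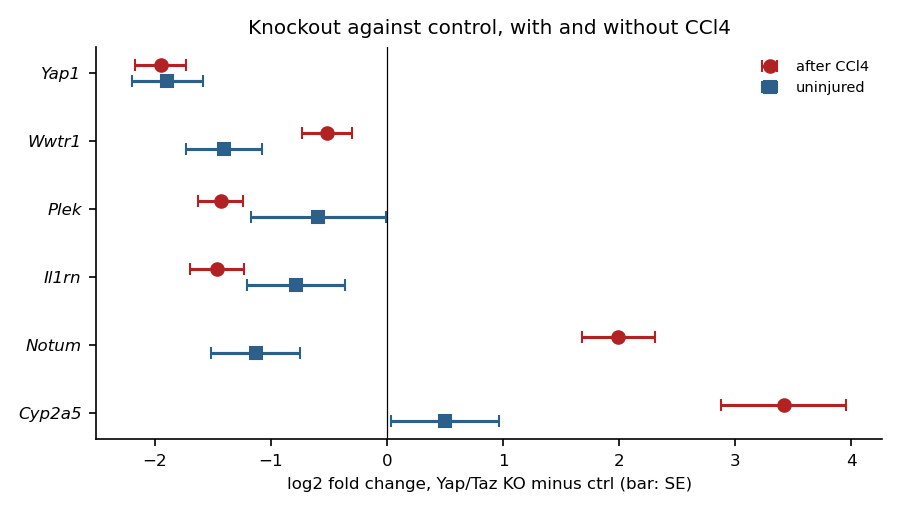
Log2 fold change of knockout against control after CCl4 (red circles) and in uninjured liver (blue squares) for 6 genes. Bars are standard errors, from the 6 CCl4 libraries fitted alone (red) or from a fit of all 12 libraries (blue). Yap1 lies at -1.95 after CCl4 and -1.89 without injury, while Notum and Cyp2a5 lie far to the right after CCl4 (1.99 and 3.42) and at -1.13 and 0.50 without injury.

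Among the lists, the uninjured medians of the metabolic lists were nearer to 0: 0.22 for pericentral, -0.01 for periportal, 0.17 for amino acid breakdown, 0.13 for P450 and 0.10 for hepatocyte markers, against -0.03 over all genes. The mitotic list was at -0.57 and the cytoskeletal list at -0.37 without injury. Markers of other cells differed in the same uninjured libraries, with medians of -0.92 for macrophages, -2.37 for monocytes and neutrophils, -0.71 for stellate cells and fibroblasts, -0.37 for endothelial cells, -3.73 for erythroid cells and 0.57 for lymphocytes (4 genes). Their part in the uninjured medians was not tested. Whether a list differed between the injured and uninjured state was not tested.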

How the data were processed

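The members of this comparison, its gene lists and its named genes were chosen with earlier results of these data known. The authors deposited raw counts of reads per gene symbol for 12 libraries of sorted hepatocytes, per the labels made with the QuantSeq 3' mRNA-Seq FWD kit. The submitters' processing notes name FastQC, cutadapt, STAR 2.6.1d, mm10 and GRCm38; no source used here states the counter or the annotation. Reads of near-identical paralogs may be split between them.

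The 6 CCl4 libraries were fitted alone in edgeR 4.0.16 (R 4.3.3): filterByExpr (minimum count 10, minimum total 15) kept 10540 of 37141 genes, TMM scaling, quasi-likelihood F test, Benjamini-Hochberg adjusted p under 0.05. The interaction and the uninjured estimates used a fit of all 12 libraries. CPM used TMM-scaled library sizes. DESeq2 1.42.0, limma-voom (limma 3.58.1), other scalings and filters, a replicate block and leaving out each library were alternatives. Replicates of a group differed beyond counting noise (chi-square per degree of freedom 9.27 to 29.5). Named genes were Yap1, Wwtr1 and 4 targets, those called, the 2 most abundant members of the lists described, and others said to be chosen after their values were seen; genes near the threshold were chosen that way too. Gene positions are from GENCODE M21 on GRCm38, in which 10396 of the 10540 symbols (98.6%) were found.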

Additional observations from a re-analysis of the deposited data

How the results depend on the processing

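The count of 5 genes (2 higher, 3 lower) was the same with RLE factors and with at least 5 CPM in 3 libraries. It was 2 (0 higher, 2 lower) with library totals and with limma-voom, 106 (70 higher, 36 lower) with DESeq2, 282 (182 higher, 100 lower) with no low-count filter and 0 (0 higher, 0 lower) with all 12 libraries in the fit; the cause was not tested. Leaving out 1 library at a time gave 0 to 48 genes, 0 to 42 higher and 0 to 6 lower. With knockout replicates 1 and 2 both left out it was 37 (25 higher, 12 lower), and with the acinar transcripts left out 8 (4 higher, 4 lower). The interaction count of 0 was 115 with no filter and 12 with DESeq2, and 0 in its other alternatives, including each left-out library.

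Same-numbered libraries did not deviate together (correlations -0.04, -0.05 and -0.10), and differently numbered ones ran from -0.04 to 0.10. With 3 libraries per group, each centred on its group mean, these values cannot decide whether the numbers pair the samples. With a replicate block the fit called 22 genes, 18 higher and 4 lower, and no interaction. No gene whose fold change is printed changed sign in any alternative. Of 48 list medians, 10 changed sign with library totals, 1 with DESeq2, 2 with limma-voom, 2 with the block, 4 to 6 with 1 library left out and 11 with knockout replicates 1 and 2 both left out. Fjx1 (7 counts over the 6 libraries) and Foxf2 (0 counts) had too few counts for a comparison.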
